A study of Mus musculus with 6 samples.

Results

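The GIMAP genes (GTPases of immunity-associated proteins) were followed in CD31-positive cells sorted from mouse tumours. The family was defined by gene symbol, and 7 of its 8 named members were measured among the 23930 genes of the table: Gimap1, Gimap3, Gimap4, Gimap5, Gimap6, Gimap8 and Gimap9. Gimap7 is not analysed here. The tumours grew under the skin of C57/Bl6 mice from injected LLC cells, an established mouse line of lung carcinoma (Lewis), and were dissociated for sorting after 2 weeks. The 3 Control libraries (replicates 1, 2 and 3) came from tumours of control LLC cells. The 3 BMP9 overexpression libraries (replicates 4, 5 and 6) came from tumours of LLC cells that overexpressed BMP9, a bone morphogenetic protein that signals in endothelial cells. All hosts shared 1 strain, and host age, vector and promoter are not used here. CD31 is carried by endothelial cells and also by many leukocytes and platelets. Nothing in the labels ties a library to its own animal, and p-values therefore measure only how these libraries spread, which may be technical.

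GIMAP proteins share a guanine nucleotide-binding domain and sit mostly on intracellular membranes. They are found mainly in lymphocytes, where several members set how long naive and resting T and B cells survive, and some members are also found in endothelial cells. Gimap5 and Gimap1 are needed for the survival of mature lymphocytes, Gimap4 speeds the death of T cells once apoptosis has begun, and Gimap6 binds a protein of the autophagosome membrane. Gimap3 is a close relative of Gimap5 in the mouse, and Gimap8 is a long member with repeated GTPase domains.

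The 8 genes lie in one cluster of 123.6 kb on chromosome 6 (48647234 to 48770851, mm10, GENCODE M21), with 6 genes on the plus strand and 2, Gimap6 and Gimap3, on the minus strand. In order along the chromosome they are Gimap8 (48647234 to 48660875), Gimap9 (48676129 to 48679114), Gimap4 (48684549 to 48692060), Gimap6 (48701582 to 48708225), Gimap7, Gimap1 (48739054 to 48743795), Gimap5 (48746197 to 48754210) and Gimap3 (48764464 to 48770851). All are annotated as protein-coding. The amplicon of each gene lies at a position that is not used here. The longest annotated transcripts of Gimap3 and Gimap5 were 97.9% identical over 720 aligned bases and shared an identical run of 140 bases, so reads of this pair cannot be assigned with certainty. Every other pair of members had an identity of at most 69.7% in its aligned part and an identical run of at most 17 bases. Gimap1 overlaps the antisense gene Gimap1os by 2391 bases and lies inside Gm28053, a gene model that also spans Gimap7 and most of Gimap5. These are overlaps of whole gene spans, introns included, and shared exons were not examined. Without strand and amplicon position, reads of these models may thus not be told apart from Gimap1 reads, nor those of Gm28053 from Gimap5 reads.

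The 250 bases before the transcription start are shown for the member with the largest change (Gimap4), a member with a change close to that of most others (Gimap3) and the member with the smallest change (Gimap1), as RefSeq gives them on GRCm38.p6, 5′ to 3′ on the strand of the gene. GENCODE places the start of Gimap4 a little further upstream, inside the stretch shown. Capitals mark matches, on either strand, to AGGAAG (a core bound by ETS factors) and to TGTGGT (a core bound by RUNX factors, read as ACCACA on the other strand).
Gimap4 (chr6:48684328-48684577, plus strand): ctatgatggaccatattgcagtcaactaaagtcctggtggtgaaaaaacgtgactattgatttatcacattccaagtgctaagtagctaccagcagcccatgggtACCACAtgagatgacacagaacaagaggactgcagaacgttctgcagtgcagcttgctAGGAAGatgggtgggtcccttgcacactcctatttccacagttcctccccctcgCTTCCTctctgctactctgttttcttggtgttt
Gimap3 (chr6:48770852-48771101, minus strand): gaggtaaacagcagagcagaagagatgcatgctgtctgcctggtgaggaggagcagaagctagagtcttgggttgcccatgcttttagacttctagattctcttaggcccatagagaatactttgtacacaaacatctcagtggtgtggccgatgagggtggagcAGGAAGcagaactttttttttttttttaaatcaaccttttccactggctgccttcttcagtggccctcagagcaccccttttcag
Gimap1 (chr6:48738797-48739046, plus strand): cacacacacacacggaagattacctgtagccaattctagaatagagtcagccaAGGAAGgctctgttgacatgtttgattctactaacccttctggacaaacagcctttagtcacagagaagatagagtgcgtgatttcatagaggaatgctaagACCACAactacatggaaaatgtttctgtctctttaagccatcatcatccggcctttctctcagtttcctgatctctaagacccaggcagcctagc
Of the 8 promoter windows of the 7 measured members, each from 250 bases before to 50 after a start, 6 held AGGAAG, against 35.4% of all 32851 windows of that length, and 2 held TGTGGT, against 16.8%. Neither AGATAA, a core bound by zinc finger factors of blood cells and present in 11.2% of all windows, nor GGCGCC, a core bound by SMAD1 and SMAD5 and present in 11.9%, matched in any of the 8. The windows of Gimap1 and Gimap4, which moved by the smallest and the largest amount, were the pair with TGTGGT. These are matches of letters and not sites of binding. The motifs do not overlap one another in the sequences shown.

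Levels are RPM (read counts relative to library size) from a panel that amplifies 1 short segment per gene. Levels of different genes are therefore only roughly comparable, and gene length does not enter. Libraries held 1321762 to 4583428 reads in the Control group and 1974510 to 28380957 in the BMP9 group, and 3 reads, the level that a count of 0 allows, corresponded to between 0.106 and 2.27 RPM. Each measured member was at 5 RPM or more in all 6 libraries, so none passed the filter through 1 group alone, and each had at least 24 reads in every library. Genes were tested with limma-trend on log2(RPM + 1), adjusted by Benjamini-Hochberg (threshold 0.05). Of the 9460 genes in that test 35.2% were called, 12.7% higher and 22.5% lower in BMP9 libraries. The higher genes made up 36% of calls on deposited RPM, 54.1% when TMM scaled the libraries, 50% on quantile-normalized values, and 54.4% (edgeR) or 53.4% (DESeq2) on whole reads. Over the tested genes the log2 fold change had a median of -0.24, which TMM scaling moved to 0.00, and each change is to be read against that shift. Gdf2, the gene of BMP9 itself, was at 0 in the 3 Control libraries and at 0.506, 0.227 and 0.176 RPM in BMP9 replicates 4, 5 and 6, on 1 to 5 reads each. BMP9 replicate 4 shares its run time stamp with the 3 Control libraries, while BMP9 replicates 5 and 6 have a later stamp that holds no Control library.

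GIMAP transcripts were lower in BMP9 overexpression libraries. All 7 measured members fell (background 22.5% of tested genes lower), and for all 7 every BMP9 library was below every Control library (31.2% of tested genes). The median log2 fold change of the members was -2.325, against -0.24 over all tested genes. For 5 members the change lay between -2.98 and -2.32, and these kept their call under every setting tried. The other two, Gimap1 and Gimap9, changed by -0.997 and -1.14 and lost the call under most settings. In bulk RNA, fewer cells of a type and less RNA per cell cannot be told apart.

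**Figure D1:**
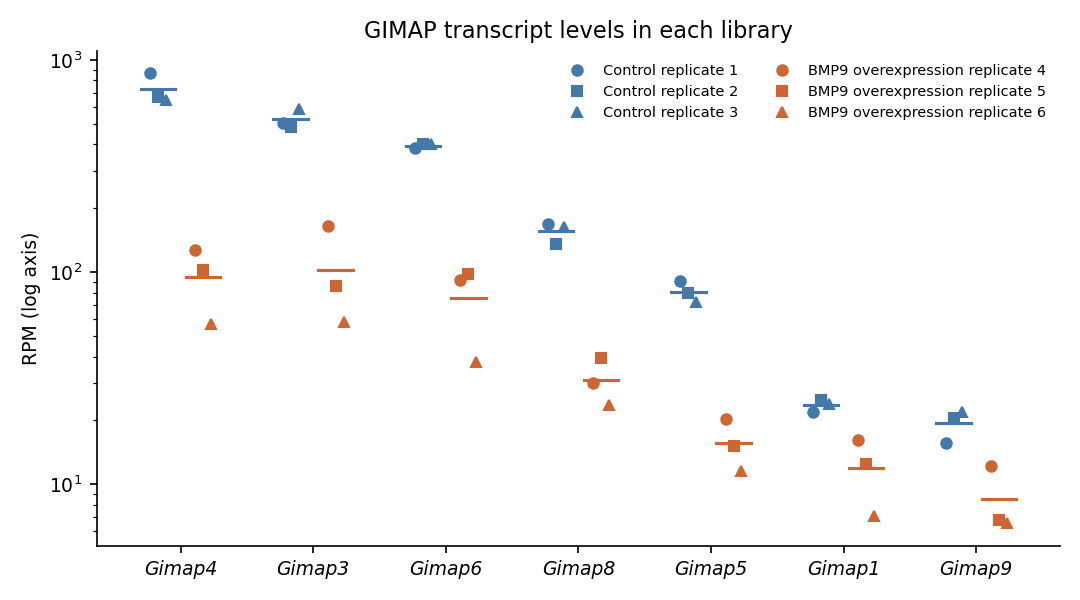
RPM of the 7 measured GIMAP genes (log axis) in the 3 Control libraries (blue) and the 3 BMP9 overexpression libraries (orange), with 1 symbol per library and a bar at the group mean. In every gene the BMP9 points lie below the Control points, and BMP9 replicate 6 is the lowest of all 6 libraries.

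Gimap4, the member that promotes T cell death, was at 866, 667 and 650 RPM in Control libraries 1, 2 and 3 and at 127, 102 and 56.8 RPM in BMP9 libraries 4, 5 and 6, in that order. The lowest Control library was thus far above the highest BMP9 library. Group means were 727 ± 120 and 95.2 ± 35.4 RPM (SD, n = 3 each), and the log2 fold change was -2.98 (SE 0.31, 95% interval -3.64 to -2.33, limma adjusted p = 9.1e-06). From the lowest fold change upward Gimap4 ranked 92 among the 9460 tested genes, and the next member, Gimap6, ranked 205.

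Gimap5, the member required for the survival of peripheral T cells, was at 90.5, 79.4 and 72.5 RPM in Control and at 20.3, 15.2 and 11.5 RPM in BMP9 libraries. Its log2 fold change was -2.325 (SE 0.31, adjusted p = 5.0e-05), from group means of 80.8 ± 9.1 and 15.6 ± 4.4 RPM (SD, n = 3 each). Gimap3, its close relative, was at 503, 482 and 588 RPM in Control and at 164, 86.2 and 58.2 RPM in BMP9 libraries. Gimap3 varied more between BMP9 libraries than any other member on an absolute scale (524 ± 56.0 and 103 ± 54.9 RPM, SD, n = 3 each), with replicate 4 well above the others. Its log2 fold change was -2.46 (SE 0.33, adjusted p = 5.9e-05), and it was -1.66 within the earlier run time stamp. Since reads of this pair may be shared, their sum is also given, which came to 605 ± 50.4 RPM (Control) against 118 ± 59.2 RPM (BMP9; SD, n = 3 each) with no overlap of groups.

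Gimap6, the autophagosome-linked member, was at 384, 399 and 400 RPM in Control libraries and at 91.7, 97.7 and 37.9 RPM in BMP9 libraries. The Control libraries lay close together (394 ± 9.21 RPM, SD, n = 3), while BMP9 replicate 6 was well below the other two (75.8 ± 32.9 RPM). The log2 fold change was -2.48 (SE 0.33, adjusted p = 5.6e-05). Gimap8, the long member, was at 169, 136 and 163 RPM in Control and at 29.9, 39.2 and 23.6 RPM in BMP9 libraries. Its log2 fold change of -2.32 (SE 0.28, adjusted p = 2.9e-05) was almost the same within the earlier stamp (-2.34).

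Gimap1, which mature T and B cells need to survive, was at 21.8, 25 and 24 RPM in Control and at 16.2, 12.5 and 7.05 RPM in BMP9 libraries. The groups did not overlap, but they lay close together, with 33 reads behind the value of Control replicate 2 and 32 behind that of BMP9 replicate 4. The log2 fold change was -0.997 (SE 0.35, 95% interval -1.75 to -0.25, adjusted p = 0.039). It was -0.51 within the earlier stamp (adjusted p = 0.37) and -0.76 with TMM (adjusted p = 0.11), and leaving out any library except BMP9 replicate 4 also lost the call. Gimap1os, the antisense gene that overlaps it, was below the filter at 1.31, 3.03 and 4 RPM in Control and 1.01, 0.68 and 0.282 RPM in BMP9 libraries, on 2 to 8 reads a library.

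Gimap9 was at 15.7, 20.4 and 22 RPM in Control and at 12.2, 6.8 and 6.55 RPM in BMP9 libraries, again without overlap. Control replicate 1 and BMP9 replicate 4 were the closest pair across the groups. The log2 fold change was -1.14 (SE 0.35, 95% interval -1.89 to -0.38, adjusted p = 0.022). It was -0.62 within the earlier stamp (adjusted p = 0.31) and -0.90 with TMM (adjusted p = 0.063), and the call was lost when Control replicate 2 or 3, or BMP9 replicate 5 or 6, was left out.

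**Figure D2:**
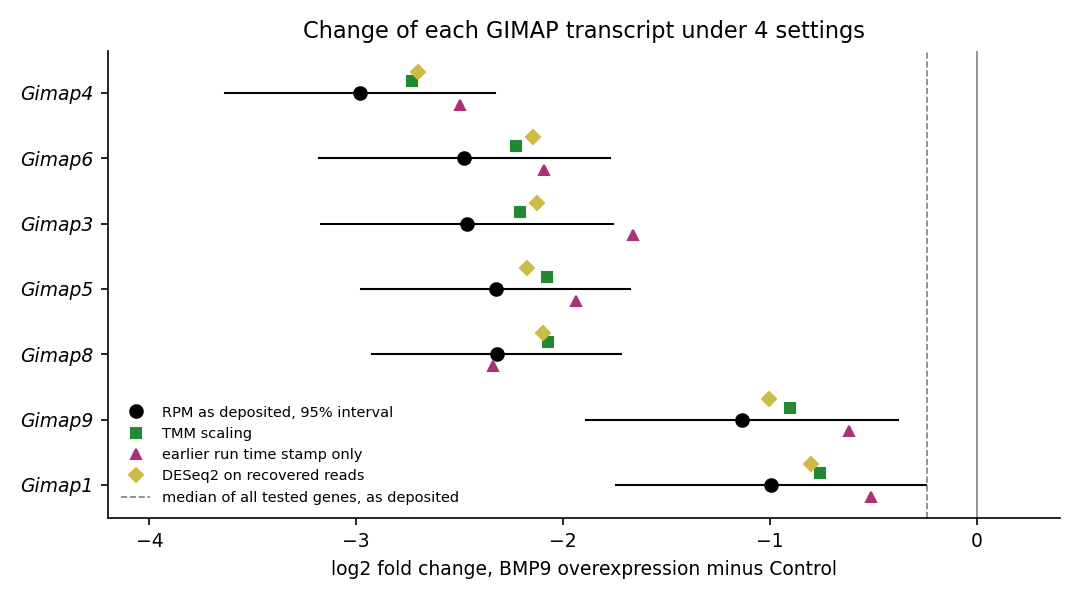
Log2 fold change (BMP9 overexpression minus Control) of each GIMAP gene with the values as deposited (black, with the 95% interval of the limma fit), with TMM scaling, with only the libraries of the earlier stamp, and with DESeq2 on whole reads. Gimap3, Gimap4, Gimap5, Gimap6 and Gimap8 lie at -1.66 or below under all of these, and Gimap1 and Gimap9 lie between -1.14 and -0.51.

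The 2 members with the smallest change were also those with the lowest levels, and they lie apart in the cluster, Gimap9 between Gimap8 and Gimap4 and Gimap1 next to Gimap5. On the log2(RPM + 1) scale the changes of low genes are understated, and the part of level in these differences was not tested. Within each library, the log2 ratio of Gimap1 to Gimap4 lay between -5.31 and -4.74 in Control and between -3.04 and -2.97 in BMP9 libraries. For Gimap9 the ratio to Gimap4 was -5.78 to -4.88 and -3.91 to -3.12. Both ratios were thus higher in all 3 BMP9 libraries than in any Control library, and scaling of the libraries does not enter them. The pairs were chosen after their values were seen, and their difference was not tested.

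The share of each member in the family's sum is given as a description, with no test. Gimap4 gave 33.9% to 42.2% of the summed GIMAP RPM in Control libraries and 27.5% to 28.4% in BMP9 libraries. Gimap1 gave 1.07% to 1.38% and 3.47% to 3.52%, and Gimap9 gave 0.767% to 1.15% and 1.89% to 3.25%. The shares of Gimap3, Gimap5, Gimap6 and Gimap8 overlapped between the groups, with means of 27.3% and 29.5% for Gimap3 and of 20.5% and 21.9% for Gimap6. The sum itself was 2049, 1809 and 1918 RPM in the Control libraries (1 to 3) and 461, 360 and 202 RPM in the BMP9 libraries (4 to 6). Gimap4, Gimap3 and Gimap6 gave most of it in every library.

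**Figure D3:**
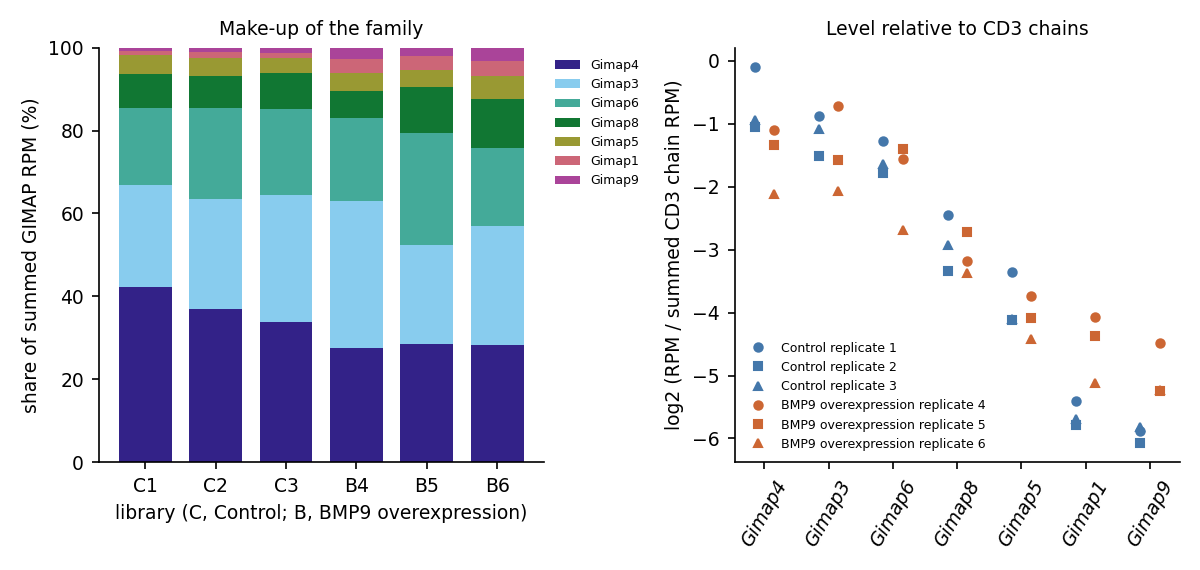
Left, share of each GIMAP gene in the summed GIMAP RPM of each library (percent, stacked). Right, log2 ratio of each gene's RPM to the summed RPM of Cd3d, Cd3e and Cd3g in the same library, with 1 symbol per library. The share of Gimap4 is below 29% in the 3 BMP9 libraries and above 33% in the 3 Control libraries, and relative to the CD3 chains only Gimap1 and Gimap9 are higher in all BMP9 than in all Control libraries.

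T and NK cell markers were lower in the same libraries. Of 16 T cell markers measured 15 were tested and 15 fell, where 22.5% of all tested genes were lower. The count was 11 with no filter on low values and 12 without BMP9 replicate 6. Their median log2 fold change was -1.97, and -1.48 within the earlier stamp, where the 15 ran from -2.34 to -0.34. Summed, the 16 reached 4794 to 5224 RPM in Control libraries but 770 to 1655 RPM with BMP9. Of 12 NK cell markers 12 fell, against the same 22.5% (median -3.11), with sums of 7867 to 8127 and 663 to 1241 RPM. Cd3e, which encodes the epsilon chain of CD3, was at 476, 550 and 654 RPM in Control and at 119, 84.1 and 112 RPM in BMP9 libraries, and changed by -2.41 on the log2 scale (adjusted p = 1.4e-05). Lck, the kinase of the T cell receptor, fell from 729 to 104 RPM (group means), and Klrd1, an NK cell receptor chain, from 313 to 21.8 RPM. No T or NK cell marker was at 0 in any library. BMP9 replicate 6, the deepest library, was the lowest of the 6 for 7 of 7 GIMAP genes, 12 of 16 T cell markers and 12 of 12 NK cell markers. The part of these markers in the GIMAP changes was not tested.

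Relative to the CD3 chains of the same library, the GIMAP sum showed no separation of the groups. The ratio of the GIMAP sum to the summed RPM of Cd3d, Cd3e and Cd3g was 2.22, 1.31 and 1.54 in Control libraries 1, 2 and 3, against 1.7, 1.39 and 0.821 in BMP9 libraries 4, 5 and 6. On the log2 scale the group means differed by -0.40, with SDs of 0.39 and 0.54 (n = 3 each), and the difference was -0.10 without BMP9 replicate 6, -0.62 without BMP9 replicate 4, -0.19 without Control replicate 1 and 0.04 within the earlier stamp. Against the sum of all 16 T cell markers the log2 ratio was -1.53 to -1.23 in Control and -1.93 to -1.77 in BMP9 libraries, which did not overlap. Of the single members, Gimap3, Gimap5, Gimap6 and Gimap8 overlapped between groups in their ratio to the CD3 chains. Gimap4 was lower relative to the CD3 chains in BMP9 libraries (log2 ratio -1.05 to -0.10 in Control, -2.11 to -1.10 in BMP9), and Gimap1 and Gimap9 were higher, by 1.11 and 0.94 between group means.

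Against Pecam1, which encodes the sort marker CD31, the GIMAP sum did separate the groups. Pecam1 was at 363, 448 and 532 RPM in Control and at 247, 353 and 311 RPM in BMP9 libraries (log2 fold change -0.56, adjusted p = 0.12). The GIMAP sum was 3.61 to 5.64 times the Pecam1 level in Control libraries and 0.649 to 1.87 times in BMP9 libraries. Of 23 other endothelial markers measured, 6 were tested, of which Icam2 and Kdr fell and Flt1 rose. The balance of these calls turned with the scaling, to 2 higher and 1 lower with TMM and 2 higher and none lower after quantile normalization. It was 1 higher and none lower without BMP9 replicate 6, and none passed within the earlier stamp. Eng (endoglin, a co-receptor for BMP9), the most abundant of the 23 by group mean, was at 44.9, 52.2 and 47.5 RPM in Control and 75.5, 67.4 and 92.4 RPM in BMP9 libraries. Its groups did not overlap, and its log2 fold change was 0.68 (adjusted p = 0.063), or 0.93 with TMM, where it passed (adjusted p = 0.016). Eng was named after its values were seen. The 23 summed to 102 to 160 RPM (Control) and 127 to 143 RPM (BMP9), a large part of it from Eng (48.2 and 78.4 RPM, group means). The median of the 23 gene means was lower with BMP9, at 1.71 RPM (Control) and 0.491 RPM (BMP9). Both lie under the 3-read level of Control replicate 2, 2.27 RPM. Tek, Tie1, Cldn5 and Sox17 were among the 13 at 0 in at least 1 library, and Cdh5, the junctional cadherin of endothelium, was at 4.58, 11.3 and 13.5 RPM in Control and 7.09, 3.18 and 8.17 RPM in BMP9 libraries. B cell markers summed to 97.6 to 145 RPM and 98.5 to 164 RPM, with Cd22 alone of 7 tested past the threshold (11.5 to 36.3 RPM) and 3 past it without BMP9 replicate 4, Cd22 higher and Blk and Ms4a1 lower. Macrophage and monocyte markers rose in 11 of 12 tested (sums of 4745 to 7336 and 18908 to 24889 RPM), where 12.7% of all tested genes were higher. The count was 9 with no filter on low values, and within the earlier stamp the 12 changes ran from 0.25 to 3.70. Of 12 neutrophil markers 6 were tested and 6 rose (120 to 148 and 489 to 614 RPM). Ly6g, Elane and Mpo were among those left untested, at no more than 0.506 RPM in any library. Of 8 platelet markers 4 were tested and 3 rose (66.6 to 123 and 610 to 849 RPM), with Pf4 alone at 49.1 and 619 RPM (group means). Dendritic cell markers summed to 541 to 702 and 475 to 846 RPM, and 2 of 9 fell, Siglech and Xcr1, a share near the 22.5% of all tested genes (1 fell without Control replicate 1). Tumour and stromal cell markers summed to 21.9 to 46.5 and 43.0 to 53.2 RPM, and 3 of 5 tested rose, Dcn, Krt18 and Col1a1 (1 rose without Control replicate 3). Flt1, S100a8, Mmp8, Retnlg, Ppbp, Dcn, Krt18 and Col1a1 reached 5 RPM in at most 1 Control library. They passed the filter through the BMP9 group, and their rise is not independent of it. S100a9 and Itga2b fell short of 5 RPM in Control replicate 2 (3.783 RPM each), so they also passed the filter only with BMP9 libraries. Their rise is likewise not independent of it. Kdr was below 5 RPM in every BMP9 library and passed it through the Control group. The part of these cell types in the GIMAP changes was not tested.

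Genes that set lymphocyte survival and quiescence, the setting in which GIMAP proteins act, were mixed. Of 21 tested, 9 fell, 1 rose and 11 did not pass, with a median log2 fold change of -0.49. Il2rg, among the 9, was at 9.56 and 1.83 RPM (group means, Control and BMP9). It was below 5 RPM in every BMP9 library, so it passed the filter through the Control group alone. Of all tested genes 22.5% were lower and 12.7% higher. With TMM 6 fell and 1 rose, where 1383 of all 9460 genes were lower and 1629 higher. Ikzf3, a zinc finger factor of lymphocytes, fell from 202 to 64.9 RPM (group means, -1.67, SE 0.30, adjusted p = 0.00059). Ets1, an ETS factor of lymphocytes, fell from 678 to 240 RPM (-1.53, SE 0.28, adjusted p = 0.00068), and Lef1, a factor of naive T cells, from 95.4 to 27.2 RPM (-1.93, SE 0.36, adjusted p = 0.00085). Il7r, the receptor for the survival cytokine interleukin 7, was at 243 and 204 RPM (-0.25, adjusted p = 0.48, and 0.02 within the earlier stamp). The member that rose was Slfn2, a quiescence gene that myeloid cells also express (1.04, adjusted p = 0.0081, and 0.91 with adjusted p = 0.062 within the earlier stamp). Il7r, Il2rg and Slfn2 were named after their values were seen.

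The BCL2 family, which sets the threshold for apoptosis, had 2 of 11 tested genes lower and none higher, a share no larger than the 22.5% of all tested genes that were lower. The counts were 2 lower and 2 higher with TMM, 2 and 2 within the earlier stamp, and 2 and 3 with the stamp as a covariate. Bcl2, the survival factor of lymphocytes, was at 318, 482 and 259 RPM in Control and 91.7, 33.1 and 42.5 RPM in BMP9 libraries. The groups did not overlap, and the log2 fold change was -2.73 (SE 0.36, adjusted p = 5.0e-05), within the range of the 5 GIMAP members that fell most. Bik, a gene that promotes apoptosis, fell from 9.78 to 1.72 RPM (-2.06, adjusted p = 0.0017). It was below 5 RPM in every BMP9 library, so it passed the filter through the Control group alone. Its value in BMP9 replicate 4 was 0.506 RPM, under the 3-read level of 1.519 RPM in that library. Mcl1, another survival factor, was at 142, 475 and 169 RPM in Control and 608, 378 and 416 RPM in BMP9 libraries, and Control replicate 2 overlapped the BMP9 range. Its log2 fold change of 1.02 missed the threshold (adjusted p = 0.051) and was 1.27 with TMM (adjusted p = 0.025) and 1.56 without Control replicate 2, where it passed.

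Autophagy genes were listed because Gimap6 binds a member of the GABARAP family. Of 15 listed 13 were measured, and Gabarapl2 and Map1lc3b were not. Gabarap (0.56, adjusted p = 0.21) and Gabarapl1 (-0.19, adjusted p = 0.63) did not pass, while Gabarap passed with DESeq2 (0.90, adjusted p = 0.028). Gabarap changed sign within the earlier stamp (-0.23), and Gabarapl1 changed sign with TMM (0.06). Both were named after their values were seen. Of 12 tested, 3 rose and none fell (median 0.34), where 12.7% of all tested genes were higher. The count was 1 without Control replicate 1 or with no filter on low values. With DESeq2 5 of the 12 rose, where 1771 of 9460 of all genes were higher. Wipi1, a phosphoinositide-binding autophagy protein, rose from 3.92 to 23.6 RPM (2.17, adjusted p = 0.00097). It was below 5 RPM in every Control library, so it passed the filter through the BMP9 group alone. Tax1bp1, an autophagy receptor, rose from 99.3 to 180 RPM (0.87, adjusted p = 0.030). Becn1, part of the kinase complex that starts autophagosomes, rose from 88.4 to 166 RPM (0.94, adjusted p = 0.043) with groups that overlapped, and was at 0.62 with adjusted p = 0.32 within the earlier stamp. Interferon-inducible GTPases, a separate family of immune GTPases, fell in 4 of 10 tested (median -0.54), where 22.5% of all tested genes were lower. They fell in 2 of 10 with TMM (1383 of 9460 of all genes), with edgeR, without filter, within the earlier stamp, or without Control replicate 1 or BMP9 replicate 6, and the share with TMM was near that of all genes. Gbp4 fell from 467 to 111 RPM (-2.21, SE 0.34, adjusted p = 0.00018), Gbp7 from 236 to 94.6 RPM (-1.33, adjusted p = 0.0016) and Igtp from 87.8 to 38.3 RPM (-1.16, adjusted p = 0.018, and 0.059 with TMM). Guanylate-binding protein genes have close copies, so their reads are uncertain.

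Of 11 listed genes beside the GIMAP cluster 8 were measured and 3 tested. Of the 3, 1 passed the threshold, a share near the 35.2% of all tested genes that were called. Tmem176a, a membrane protein gene on the distal side (48840919 to 48847071), was at 72.7, 77.9 and 71 RPM in Control and 32.4, 21.3 and 20.9 RPM in BMP9 libraries and fell by 1.56 on the log2 scale (SE 0.29, adjusted p = 0.00087). Tmem176b, which overlaps it at one end (48833818 to 48841496), was at 246, 293 and 304 RPM and at 478, 223 and 261 RPM, and its groups overlapped (0.12, adjusted p = 0.79, and -0.21 without BMP9 replicate 4). Zfp467, a zinc finger gene on the proximal side (48427697 to 48445825), was at 15.1, 8.32 and 17 RPM and at 22.8, 25.4 and 19.3 RPM (0.75, adjusted p = 0.11), and passed with TMM (0.99, adjusted p = 0.036). The other measured neighbours, Sspo, Atp6v0e2, Lrrc61, Rarres2 and Aoc1, were at most 3.03 RPM in any library.

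**Figure D4:**
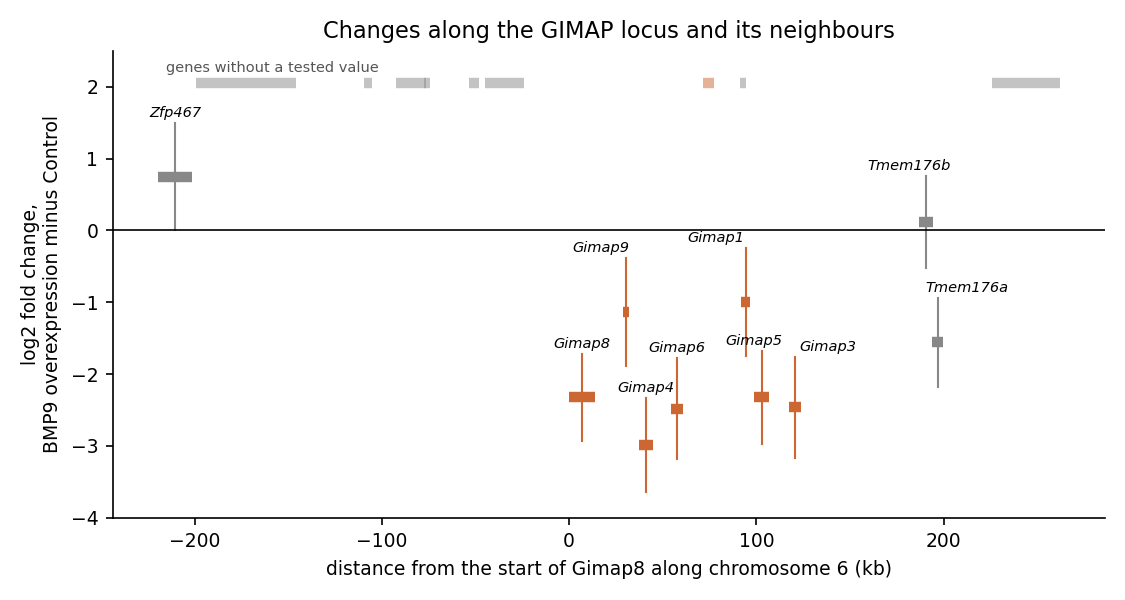
Log2 fold change (BMP9 overexpression minus Control) against distance from the start of Gimap8 on chromosome 6 (kb). Thick bars span each gene, orange for GIMAP genes and grey for neighbours, vertical lines are 95% intervals of the limma fit, and genes without a tested value are drawn at the top. The 7 GIMAP bars lie between -2.98 and -0.997, while the 3 tested neighbours lie at 0.75, 0.12 and -1.56.

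The genes most like the family were sought by the distance between log2(RPM + 1) profiles over the 6 libraries, each centred on its own mean, among the 8262 tested genes that averaged 10 RPM or more. Closest was Tnfrsf9, the costimulatory receptor 4-1BB of activated T and NK cells (distance 0.219), at 706, 763 and 771 RPM in Control and 245, 192 and 137 RPM in BMP9 libraries. Next were Tk1, a thymidine kinase of dividing cells (0.245), Pglyrp2, a peptidoglycan amidase (0.364), Kif18b, a mitotic kinesin (0.371), Rgs16, a regulator of G protein signalling (0.393), H2-Q5, a class I histocompatibility gene with close copies (0.394), Dlgap5, a mitotic spindle gene (0.406) and Hsd11b1, a glucocorticoid-activating enzyme (0.411). Of the members, Gimap5 lay closest to the family mean (0.418), and Gimap1 and Gimap9 lay farthest (1.37 and 1.31). Of the T cell markers Cd247, the zeta chain of the T cell receptor complex, lay nearest at 0.684 (rank 70 of the candidates), about as near as Gimap6 (0.677) and nearer than Gimap4 (1.13). Cd28 was at 0.759, Thy1 at 0.788, Cd2 at 0.89 and Cd3e at 0.946 (rank 220). Cd247, Cd28, Thy1 and Cd2 were named after their values were seen. These distances rest on 6 libraries in 2 groups and are a description.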

How the data were processed

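RNA of sorted CD31-positive cells went through the Ion AmpliSeq mouse transcriptome panel, read on Ion Torrent, per the labels' protocols. Per the submitters' processing notes the genome was mm10. Aligner, counter and filters: not given in the sources used here. What the authors deposited is RPM per gene and library. Whole reads were recovered for 100% of nonzero values within 0.05 reads, for the count tests only. Since PCR reads here carry no molecular identifiers, the 3-read floor reflects counting error alone. Within groups, libraries differed beyond sampling noise (chi-square per degree of freedom 9.12 or more).

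Groups and replicates came from the titles. A gene was tested if 3 or more libraries had 5 RPM or more. The test was limma-trend from limma 3.58.1 in R 4.3.3, applied to log2(RPM + 1), Benjamini-Hochberg, threshold 0.05. Adjusted p-values come from it where no other tool is named. Fold changes are BMP9 overexpression minus Control. edgeR 4.0.16 called 3114 and DESeq2 1.42.0 called 3317 genes on whole reads. The members and the 14 gene lists (190 genes, some in more than 1 list) were chosen with earlier results of these data known. The rule named all members, the 3 genes of smallest p in each list, all locus neighbours, Pecam1, Cd3e, Cdh5 and the 8 nearest profiles. Marker lists are given mostly by counts and sums. Tek, Tie1, Cldn5 and Sox17 were picked after their values were seen. Transcripts were compared by local alignment (Biopython 1.88, GENCODE M21), and promoters are RefSeq's. The procedure was tested on simulated data.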

Additional observations from a re-analysis of the deposited data

How the results depend on the processing

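Under 18 alternatives Gimap3, Gimap4, Gimap5, Gimap6 and Gimap8 kept their direction and call, with log2 fold changes from -3.54 to -1.66 and adjusted p of at most 0.0119. Gimap1 passed in 6 of 18 fits that tested it, the one reported included, and Gimap9 in 8 of 18, always lower. The filter of a mean of 20 RPM leaves both out. The count of GIMAP genes called was 5 to 7, and 5 to 7 when each library was left out in turn. Over all genes 3330 were called, 5102 with array weights and 2311 to 3552 with a library left out. The number lower was 2130, against 1383 with TMM, 1421 with edgeR, 3351 with array weights and 1367 without Control replicate 1. The cause was not tested. The log2 difference of the GIMAP sum relative to the CD3 chains (-0.40) was -2.02 relative to Pecam1, -0.46 relative to all T cell markers and -0.62 to -0.10 with a library left out. Leaving out libraries and the earlier stamp were added for this ratio after seeing the data. Of 777 values for 44 other genes (those the rule named from the lists, Pecam1 and Cdh5), 52 lost a call, 15 gained one and 4 changed sign. None of the 4 was in a called gene: Ms4a1 (0.39 within the earlier stamp and with it as a covariate) and Tmem176b (-0.033 with array weights, -0.212 without BMP9 replicate 4). Genes named after their values were seen are not in this count. Among them Gabarap (-0.23) and Il7r (0.02) changed sign within the earlier stamp, and Gabarapl1 (0.06) with TMM. With a library left out Tmem176b ranged from -0.212 to 0.338, against 0.12 as reported. The fit within the earlier stamp and the fit with the stamp as a covariate both rest on BMP9 replicate 4 alone, which is assumed to vary like the others. No paired analysis was possible because the groups share no replicate number. Depth limits Gimap1 and Gimap9 most, with 24 to 200 reads a library.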
